A study of Homo sapiens with 12 samples.

Results

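The kinetochore is the protein assembly on each chromosome that spindle microtubules grip when a cell divides. Messenger RNA of the genes that build it, of the centromere it stands on and of the spindle checkpoint that reads it was followed here in H929, a long-established line of human myeloma cells, which derive from plasma cells that make antibody. The 43 genes were listed by name from their known roles, but with earlier results of these data already known. Of these, 41 were measured by at least 1 probe set with a single gene symbol and all 41 passed the filter on dim probe sets, among 14725 genes tested of 19775 measured. CENPP and CENPJ, whose product belongs to the centriole, were not analysed here.

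The data were 12 arrays in 4 groups of 3. In the infected arm, H929 cells were infected to express a hairpin RNA aimed at GFP (shGFP, the control) or at BCL9 (shBCL9), which helps beta-catenin switch on Wnt target genes, and cells positive for GFP were then sorted. In the transfected arm the control was cel-miR-67, a microRNA of the worm, and the treatment was human miR-30, with no sort named. The labels write the miR-30 family as a to e and leave unsaid if these were pooled. The series names BCL9 as a target of miR-30-5p, so the arms ask what the microRNA and the loss of its target each do to the same cells. Values are log2 intensities, on which a difference of 1 is a 2-fold change. A gene was called, and is said to have risen or fallen, when its Benjamini-Hochberg adjusted p in limma, over all 14725 genes, was under 0.05. The labels do not state separate cultures for the arrays within a group, so each p-value reflects variation among arrays that may be technical. In bulk RNA, fewer dividing cells and less of a transcript per cell cannot be told apart.

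The inner kinetochore begins with nucleosomes that hold CENP-A, a centromeric form of histone H3, which HJURP loads after division, and with the constitutive centromere-associated network bound to them. The outer kinetochore holds the KNL1, MIS12 and NDC80 complexes, which bind microtubules, the SKA complex, which helps hold on to shortening microtubule ends, and the corona, which captures microtubules and recruits motors. While a kinetochore is unattached, TTK, BUB1, BUB1B, BUB3 and MAD2L1 signal from it to delay anaphase, and shugoshins guard the cohesion of sister centromeres. Many of these genes are transcribed mainly in late S, G2 and mitosis, under proteins that bind the cell cycle homology region (CHR) and CCAAT elements of their promoters.

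The microRNAs of the treatment share the seed, the stretch that pairs with target messages. The 3 mature miR-30 sequences matched are shown with the seed, bases 2 to 8, in capitals, as given by RefSeq with GRCh38.p14.
hsa-miR-30a-5p: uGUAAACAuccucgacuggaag
hsa-miR-30c-5p: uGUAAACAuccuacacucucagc
hsa-miR-30e-5p: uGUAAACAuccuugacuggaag
All 3 carried the seed GUAAACA and differed after it.

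Promoters of the genes were read because many of them moved together. RefSeq windows of 300 bases, 250 before to 50 after the start of transcription (GRCh38.p14), were matched for 34 of the 43 genes and searched on both strands for TTTGAA, the core of the CHR, and for CCAAT. The letters can share a base, but 0 TTTGAA matches in these genes overlapped a CCAAT match. TTTGAA stood in 16 of 34 windows (47.1%), against 10.2% of the 11677 tested genes with a window and 15.4% of all 27305 windows. CCAAT stood in 22 of 34 (64.7%), against 36.3% of tested genes and 35.7% of all windows, and 10 of 34 held both (29.4%, against 4.25% and 6.08%). The 200 bases before the start are shown for HJURP, CENPA, ZWINT, SPDL1 and BUB1B, which rose with miR-30. SPDL1 and BUB1B also rose with shBCL9. PMF1 and SKA2, also shown, rose with shBCL9 and were not called with miR-30. These are picked examples, so their contrast does not stand for all the genes. Of the windows of genes that rose with miR-30, 10 of 16 held TTTGAA. Those of BUB1, SGO2, CENPU and SPC24 held CCAAT alone, and those of CENPE and CENPI held neither. Capitals mark TTTGAA or its reverse complement TTCAAA, and CCAAT or its reverse complement ATTGG.
HJURP (chr2:233854536-233854735, minus strand): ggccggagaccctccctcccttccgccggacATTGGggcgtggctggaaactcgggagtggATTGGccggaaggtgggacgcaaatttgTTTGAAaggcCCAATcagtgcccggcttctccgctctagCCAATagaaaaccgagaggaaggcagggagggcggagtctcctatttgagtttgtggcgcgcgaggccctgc
CENPA (chr2:26785856-26786055, plus strand): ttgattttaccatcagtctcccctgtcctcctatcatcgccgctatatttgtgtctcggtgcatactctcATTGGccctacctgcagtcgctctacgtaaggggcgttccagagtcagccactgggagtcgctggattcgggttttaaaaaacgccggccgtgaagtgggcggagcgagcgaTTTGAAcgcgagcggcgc
ZWINT (chr10:56361260-56361459, minus strand): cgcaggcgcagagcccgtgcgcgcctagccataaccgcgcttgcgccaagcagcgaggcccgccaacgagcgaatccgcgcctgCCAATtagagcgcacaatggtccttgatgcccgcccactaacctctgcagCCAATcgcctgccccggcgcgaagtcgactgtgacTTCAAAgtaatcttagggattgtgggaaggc
SPDL1 (chr5:169583573-169583772, plus strand): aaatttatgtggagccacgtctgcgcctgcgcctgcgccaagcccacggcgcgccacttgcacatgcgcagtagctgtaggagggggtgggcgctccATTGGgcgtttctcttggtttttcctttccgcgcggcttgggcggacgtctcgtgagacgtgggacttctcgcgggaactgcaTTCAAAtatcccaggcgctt
BUB1B (chr15:40160869-40161068, plus strand): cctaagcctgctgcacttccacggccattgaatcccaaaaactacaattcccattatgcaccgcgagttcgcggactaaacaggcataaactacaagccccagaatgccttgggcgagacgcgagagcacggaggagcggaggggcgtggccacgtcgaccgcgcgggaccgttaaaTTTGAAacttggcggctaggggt
PMF1 (chr1:156212807-156213006, plus strand): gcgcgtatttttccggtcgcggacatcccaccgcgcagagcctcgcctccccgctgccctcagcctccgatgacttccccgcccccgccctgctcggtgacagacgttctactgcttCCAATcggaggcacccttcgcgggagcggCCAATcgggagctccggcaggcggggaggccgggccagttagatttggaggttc
SKA2 (chr17:59155187-59155386, minus strand): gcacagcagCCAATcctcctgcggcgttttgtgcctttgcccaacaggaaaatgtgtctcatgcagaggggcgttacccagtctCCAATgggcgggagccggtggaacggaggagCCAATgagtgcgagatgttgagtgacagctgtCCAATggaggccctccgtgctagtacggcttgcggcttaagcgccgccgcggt
TTTGAA lay close to the start in CENPA (leftmost base at position -18), SPDL1 (-20), BUB1B (-23) and ZWINT (-31), and at -111 in HJURP, where 4 CCAAT matches surround it. The PMF1 and SKA2 windows held CCAAT and no TTTGAA. A match describes these letters and is not a binding site.

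The hairpin was checked at BCL9 first. BCL9 read 7.88, 7.90 and 7.88 in shGFP and 7.73, 7.61 and 7.85 in shBCL9, a difference of -0.15 (SE 0.07, adjusted p = 0.0874), with all shBCL9 arrays below all shGFP arrays. It read 7.82, 7.86 and 7.79 with cel-miR-67 and 7.99, 8.05 and 7.83 with miR-30, a difference of 0.14 (adjusted p = 0.269), with overlapping arrays. BCL9 RNA was thus not called as changed in either arm. Its change with miR-30 was 0.29 above its change with shBCL9, a difference that limma called (adjusted p = 0.0404). Array medians ran from 5.46 to 5.53, and arrays correlated across genes at r = 0.997 to 0.998 within groups and at 0.949 to 0.953 between shGFP and cel-miR-67. All 9 plasma cell markers lay above the filter level in every array, as did 3 B cell markers (PAX5, CIITA and BACH2), 2 of 5 T and NK cell, 2 of 5 myeloid, 2 of 5 stromal and epithelial markers and both measured erythroid ones.

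With miR-30, many of the kinetochore genes rose and none fell. Of the 41 genes, 20 were higher than with cel-miR-67 and 0 lower, where 4.98% of all tested genes were called, 2.34% higher and 2.63% lower. Their median change was 0.21, against -0.02 over all tested genes, and 36 of 41 changes were above 0. The miR-30 arrays all lay above the cel-miR-67 arrays in 25 of the 41 genes, against 10.0% of all genes, and all below in 1, NSL1, against 16.1%. The largest rise was 1.59-fold, so these were changes of moderate size. Of the 20 calls, 13 held whichever array was left out, and CENPC, CENPL, KNTC1, SKA1, SPC24, SPC25 and ZWINT each lost theirs without some array. Without cel-miR-67 replicates 1, 2 and 3 in turn 13, 16 and 14 of the 20 calls were kept. Without miR-30 replicates 1, 2 and 3 the kept calls numbered 16, 14 and 16. The lost calls kept their direction, with adjusted p-values of 0.0505 (KNTC1) to 0.106 (SPC25).

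**Figure D1:**
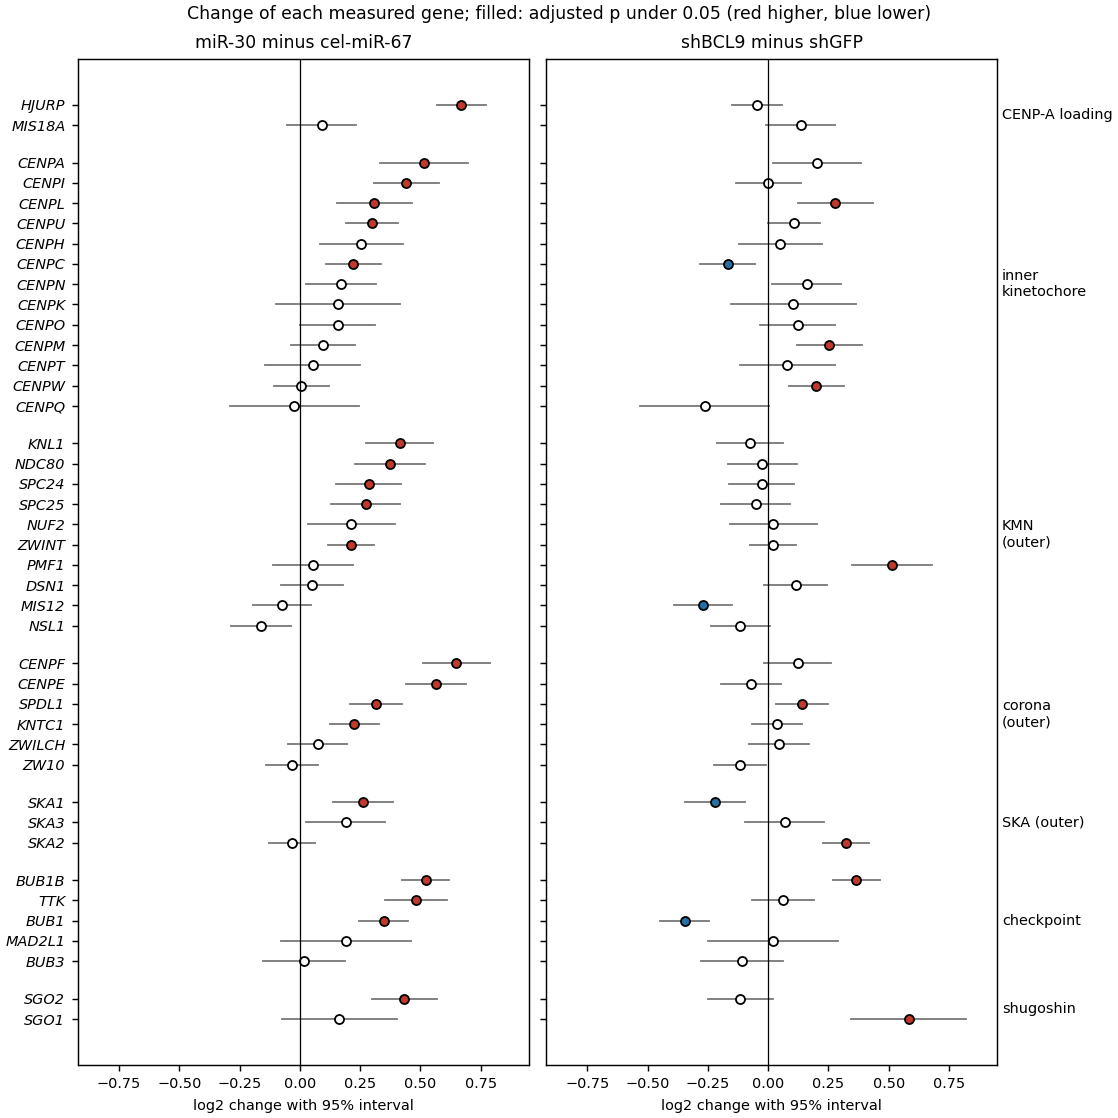
Log2 change of each of the 41 measured genes with its 95% interval (horizontal axis), with miR-30 against cel-miR-67 on the left and shBCL9 against shGFP on the right, in rows ordered by layer of the kinetochore. Filled points passed an adjusted p of 0.05 in limma, red for higher and blue for lower: 20 red and 0 blue on the left, 8 red and 4 blue on the right.

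Of the 2 measured CENP-A loading factors, HJURP, the chaperone that places CENP-A into centromeric chromatin, rose with miR-30. HJURP read 9.48, 9.54 and 9.55 with cel-miR-67 and 10.19, 10.18 and 10.22 with miR-30. The groups lay far apart, and HJURP rose by 0.67 (SE 0.05, 1.59-fold, adjusted p = 1.99e-05), the largest change of the 41 genes in this arm. In the infected arm HJURP read 10.36, 10.38 and 10.33 with shGFP and 10.37, 10.30 and 10.25 with shBCL9. Those arrays overlapped, and the change was -0.05 (95% interval -0.15 to 0.06). MIS18A, a subunit of the complex that licenses loading, changed by 0.09 with miR-30, where its arrays overlapped, and by 0.13 with shBCL9, neither of them called. Its other probe sets gave -0.02 and -0.03 with miR-30, and 0.14 and -0.29 with shBCL9.

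Among 13 measured genes of the inner kinetochore, 5 rose with miR-30: CENPA, CENPI, CENPL, CENPU and CENPC. The median of the 13 was 0.17. CENPA, the histone itself, read 7.85, 7.75 and 8.16 with cel-miR-67 and 8.43, 8.40 and 8.49 with miR-30. The control arrays were spread, the third lying highest, yet all stayed below the miR-30 arrays, and CENPA rose by 0.52 (SE 0.08, 1.43-fold, adjusted p = 0.00517). CENPI, of the CENP-H, I, K and M complex, read 5.70, 5.65 and 5.62 with cel-miR-67 and 6.05, 6.03 and 6.21 with miR-30. It rose by 0.44 (SE 0.06, adjusted p = 0.00201) with no overlap. CENPC, which links CENP-A nucleosomes to the MIS12 complex, read 7.32, 7.33 and 7.35 with cel-miR-67 and 7.56, 7.53 and 7.57 with miR-30, tight groups that differed by 0.22 (SE 0.05, adjusted p = 0.032). CENPL, which with CENPN reads the CENP-A nucleosome, rose by 0.31 (adjusted p = 0.0285), and CENPU, of the CENP-O complex, by 0.30 (adjusted p = 0.00589). CENPH, a partner of CENPI, changed by 0.26 (adjusted p = 0.0847), with every miR-30 array above every control. The rest of the network ran from -0.02 (CENPQ) to 0.17 (CENPN), CENPT and CENPW, which form histone folds, reading 0.05 and 0.01. In this network the calls were lost without some array for CENPC and CENPL, and leaving out any of cel-miR-67 replicates 1, 2 and 3 or miR-30 replicates 2 and 3 left 3 calls.

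In the outer kinetochore 10 of 19 genes rose with miR-30, with a median of 0.21. The difference from the inner layer, where 5 of 13 rose, was not tested. NDC80, the microtubule-binding subunit of its complex, read 9.82, 9.94 and 9.91 with cel-miR-67 and 10.17, 10.29 and 10.34 with miR-30. It rose by 0.37 (SE 0.07, adjusted p = 0.00793), with no overlap. Its partners SPC24 (0.29, adjusted p = 0.0214) and SPC25 (0.27, adjusted p = 0.0332), which tether the complex to the kinetochore, also rose, while another probe set of SPC24 read a change of -0.06. NUF2, the other microtubule-facing subunit, changed by 0.21 (adjusted p = 0.164), with all miR-30 arrays above the controls. KNL1, the scaffold that docks checkpoint proteins, read 9.00, 8.82 and 8.80 with cel-miR-67 and 9.33, 9.28 and 9.26 with miR-30. Every miR-30 array was higher, and KNL1 rose by 0.41 (SE 0.06, adjusted p = 0.00369), as did its partner ZWINT by 0.21 (adjusted p = 0.0168). None of the 4 MIS12 complex genes was called: DSN1 changed by 0.05, MIS12 by -0.07, NSL1 by -0.16 and PMF1 by 0.05.

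The corona held the largest outer changes. CENPF, a large coiled-coil protein that binds microtubules and dynein regulators, read 9.39, 9.36 and 9.28 with cel-miR-67 and 10.09, 10.00 and 9.89 with miR-30. It rose by 0.65 (SE 0.06, 1.57-fold, adjusted p = 0.000189). CENPE, the kinesin that moves chromosomes towards the spindle equator, read 9.76, 9.76 and 9.73 with cel-miR-67 and 10.39, 10.36 and 10.21 with miR-30. Neither gene's groups overlapped, and CENPE rose by 0.57 (SE 0.06, 1.48-fold, adjusted p = 0.000238). SPDL1, the adaptor that brings dynein to the corona, read 9.39, 9.46 and 9.51 with cel-miR-67 and 9.75, 9.76 and 9.81 with miR-30, a rise of 0.32 (SE 0.05, adjusted p = 0.00426). Of the complex that recruits SPDL1, KNTC1 rose by 0.23 (adjusted p = 0.0172), whereas ZWILCH changed by 0.07 and ZW10 by -0.03, neither called. In the SKA complex, SKA1 read 9.00, 8.98 and 8.96 with cel-miR-67 and 9.25, 9.17 and 9.30 with miR-30. SKA1 rose by 0.26 (SE 0.06, adjusted p = 0.022) without overlap, while SKA3 changed by 0.19 (adjusted p = 0.171) and SKA2 by -0.03. The outer count fell to 5 without cel-miR-67 replicate 1 and to 6 without cel-miR-67 replicate 3 or miR-30 replicate 2.

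Of the spindle checkpoint, the kinase genes BUB1 and TTK and the BUBR1 gene BUB1B rose with miR-30, 3 of 5 with a median of 0.35. BUB1B, a component of the complex that inhibits the anaphase-promoting complex, read 10.03, 10.01 and 10.04 with cel-miR-67 and 10.51, 10.54 and 10.60 with miR-30. It rose by 0.52 (SE 0.04, 1.44-fold, adjusted p = 8.09e-05). TTK, the kinase that starts checkpoint signalling, read 8.82, 8.90 and 8.86 with cel-miR-67 and 9.30, 9.38 and 9.34 with miR-30. As for BUB1B, the groups were several standard deviations apart, and TTK rose by 0.48 (SE 0.06, adjusted p = 0.000967). BUB1 read 10.18, 10.30 and 10.23 with cel-miR-67 and 10.57, 10.58 and 10.61 with miR-30, a rise of 0.35 (SE 0.05, adjusted p = 0.00149). MAD2L1 changed by 0.19 (95% interval -0.08 to 0.46) and BUB3 by 0.02 (-0.15 to 0.19), neither called. Of the shugoshins, SGO2 read 9.30, 9.38 and 9.33 with cel-miR-67 and 9.75, 9.79 and 9.78 with miR-30, a rise of 0.43 (SE 0.06, adjusted p = 0.00242) with no overlap. SGO1 read 5.79, 6.04 and 5.65 with cel-miR-67 and 5.85, 6.07 and 6.04 with miR-30, overlapping values that differed by 0.16 (adjusted p = 0.439).

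**Figure D2:**
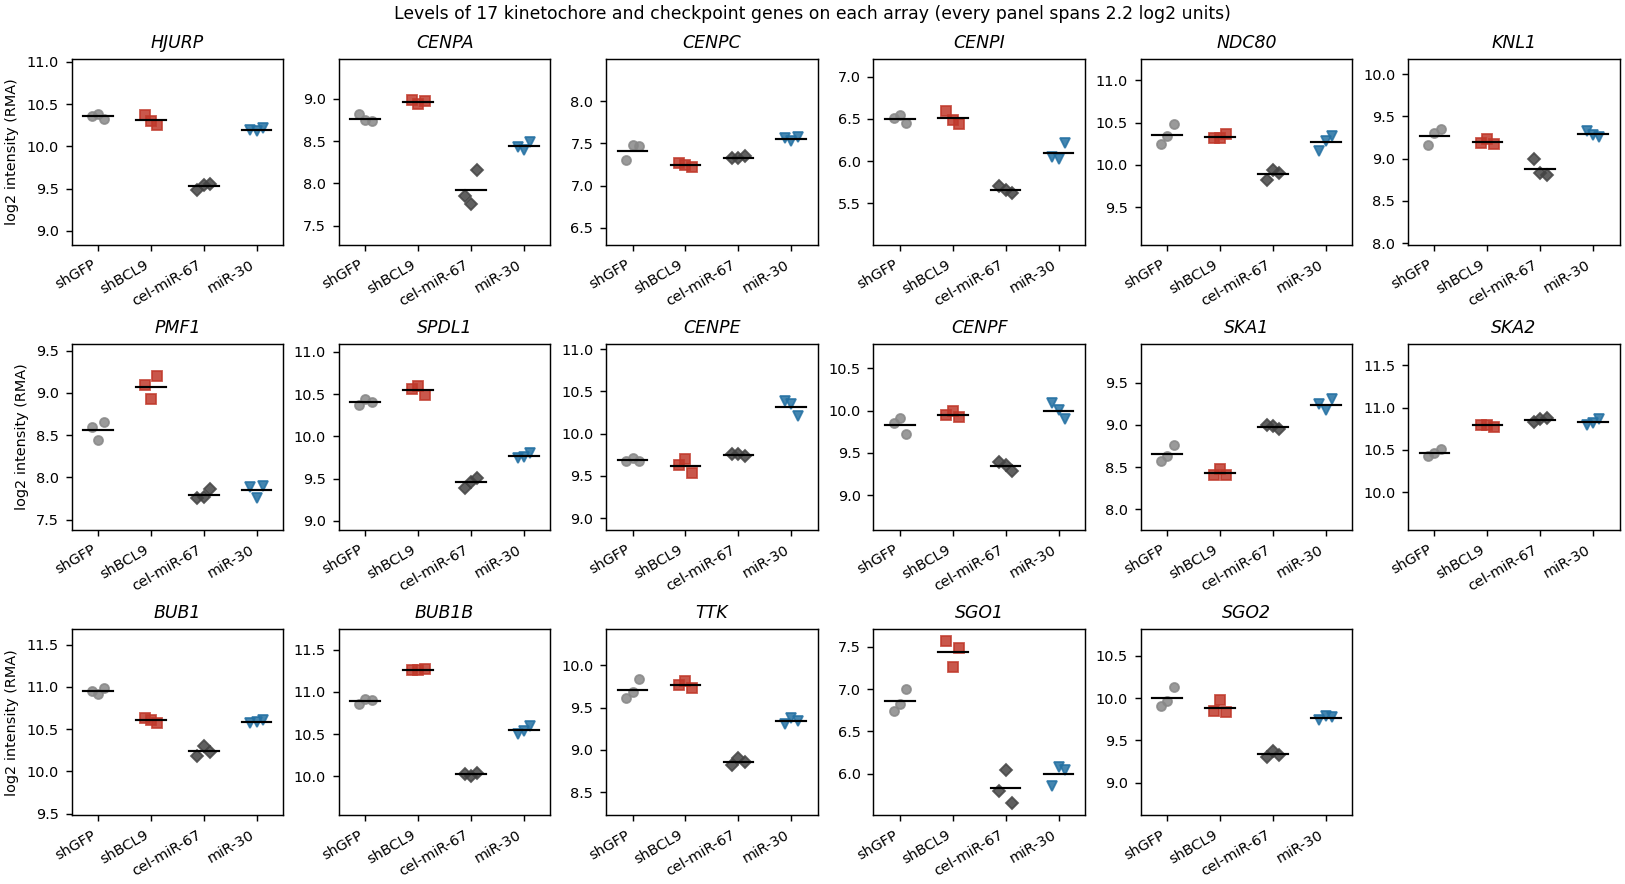
Log2 intensity (vertical axis) on each of the 3 arrays per group for 17 genes, with a bar at each group mean and every panel spanning 2.2 log2 units. In CENPE the miR-30 arrays stand above the other 3 groups, whereas in BUB1B, SPDL1 and TTK both infected groups stand above both transfected ones.

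With shBCL9 the same genes moved both ways. Of the 41, 8 rose and 4 fell, together 29.3%, where 41.5% of all tested genes were called (18.7% higher and 22.9% lower), so the share was below that of all genes. Their median change was 0.05, against 0.03 over all genes. After a further quantile normalization 11 rose and 3 fell. The groups did not overlap in 12 genes that were higher and 6 that were lower, against 24.8% and 27.2% of all genes. CENPC and SPDL1 lost their calls without some array. For SPDL1 these were all 3 shGFP arrays, shBCL9 replicates 1 and 2 and cel-miR-67 replicate 2, with adjusted p-values of 0.0517 to 0.113.

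SGO1, the shugoshin that protects centromeric cohesin in mitosis, moved most. It read 6.74, 6.82 and 7.01 with shGFP and 7.57, 7.26 and 7.49 with shBCL9. All shBCL9 arrays were higher, and SGO1 rose by 0.58 (SE 0.11, 1.50-fold, adjusted p = 0.00104), although another of its probe sets gave -0.09. SGO2 read 9.91, 9.97 and 10.13 with shGFP and 9.85, 9.98 and 9.83 with shBCL9, overlapping values with a change of -0.12 (adjusted p = 0.158). PMF1, of the MIS12 complex, read 8.59, 8.44 and 8.65 with shGFP and 9.09, 8.93 and 9.20 with shBCL9. It rose by 0.51 (SE 0.08, 1.43-fold, adjusted p = 0.000188) with no overlap, while its complex partner MIS12 fell by 0.27 (adjusted p = 0.00191). DSN1 (0.11) and NSL1 (-0.12), the rest of that complex, were not called.

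The SKA complex also split. SKA2 read 10.43, 10.46 and 10.51 with shGFP and 10.80, 10.80 and 10.78 with shBCL9, a rise of 0.32 (SE 0.04, 1.25-fold, adjusted p = 8.88e-05). SKA1 read 8.57, 8.63 and 8.76 with shGFP and 8.41, 8.47 and 8.41 with shBCL9. Neither pair of groups overlapped, and SKA1 fell by 0.22 (adjusted p = 0.00815), while SKA3 changed by 0.07. In the checkpoint, BUB1B read 10.86, 10.92 and 10.90 with shGFP and 11.25, 11.25 and 11.27 with shBCL9, a rise of 0.37 (SE 0.04, 1.29-fold, adjusted p = 3.13e-05). BUB1 read 10.95, 10.91 and 10.98 with shGFP and 10.63, 10.60 and 10.58 with shBCL9. Here the shBCL9 arrays lay lower, and BUB1 fell by 0.35 (SE 0.05, adjusted p = 7.63e-05). Of the other BUB1 probe sets, the 3 above the filter level in at least 3 arrays gave 0.34, -0.82 and -0.41, and 1 that was below it in every array gave -0.37. TTK read 9.62, 9.68 and 9.84 with shGFP and 9.77, 9.81 and 9.73 with shBCL9, overlapping values with a change of 0.06.

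In the inner kinetochore, CENPL (0.28, adjusted p = 0.00795), CENPM (0.25, adjusted p = 0.00529) and CENPW (0.20, adjusted p = 0.00894) rose with shBCL9, and 1 gene fell. That gene, CENPC, read 7.30, 7.48 and 7.47 with shGFP and 7.27, 7.25 and 7.23 with shBCL9, so that the first shGFP array came close to the shBCL9 arrays. Its change was -0.17 (SE 0.05, adjusted p = 0.0224). This call was lost without shGFP replicates 2 or 3 or shBCL9 replicates 2 or 3, with adjusted p-values of 0.0504 to 0.0969. CENPA read 8.82, 8.75 and 8.73 with shGFP and 8.99, 8.94 and 8.97 with shBCL9. The arrays did not overlap, but the change of 0.20 was not called (adjusted p = 0.0732). CENPI read 6.51, 6.55 and 6.46 with shGFP and 6.60, 6.48 and 6.44 with shBCL9, a change of 0.00 (95% interval -0.13 to 0.14). Another CENPI probe set, above the filter level in all 12 arrays, gave -0.25.

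Most of the microtubule-binding and corona genes that rose with miR-30 gave no call with shBCL9. NDC80 read 10.25, 10.34 and 10.48 with shGFP and 10.31, 10.32 and 10.37 with shBCL9, a change of -0.02 (95% interval -0.17 to 0.12). KNL1 read 9.16, 9.30 and 9.35 with shGFP and 9.19, 9.23 and 9.17 with shBCL9, a change of -0.07 (-0.21 to 0.06). In both, the shBCL9 values fell within or beside the range of the controls. CENPE read 9.67, 9.72 and 9.68 with shGFP and 9.63, 9.70 and 9.53 with shBCL9, overlapping, with a change of -0.07 (-0.20 to 0.05). CENPF read 9.85, 9.91 and 9.72 with shGFP and 9.95, 9.99 and 9.92 with shBCL9, just clear of each other, with a change of 0.12 (adjusted p = 0.14). SPDL1 was the corona gene called with shBCL9. It read 10.37, 10.44 and 10.40 with shGFP and 10.56, 10.59 and 10.49 with shBCL9, a rise of 0.14 (SE 0.05, adjusted p = 0.0371).

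PMF1 and SKA2, which rose with shBCL9, gave overlapping arrays in the transfected arm. PMF1 read 7.75, 7.77 and 7.86 with cel-miR-67 and 7.89, 7.76 and 7.90 with miR-30. SKA2 read 10.83, 10.87 and 10.87 with cel-miR-67 and 10.79, 10.82 and 10.86 with miR-30. The intervals of their changes, -0.11 to 0.22 for PMF1 and -0.13 to 0.06 for SKA2, left out the sizes of their rises with shBCL9.

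Set side by side, CENPL, SPDL1 and BUB1B rose in both arms. CENPC, SKA1 and BUB1 rose with miR-30 and fell with shBCL9. A further 14 genes were called with miR-30 alone, CENPM, CENPW, PMF1, SKA2 and SGO1 rose and MIS12 fell with shBCL9 alone, and 15 were called in neither. Whether a gene responded differently in the arms was tested as the difference of the effects, miR-30 minus shBCL9, which shares all arrays with both comparisons. It was called in 16 genes, 14 higher and 2 lower, where 26.3% of all genes were called (14.6% higher and 11.7% lower). HJURP (0.72, SE 0.07, adjusted p = 8.24e-06), BUB1 (0.69, SE 0.07, adjusted p = 9.47e-06), CENPE (0.64, SE 0.08, adjusted p = 0.000109), SGO2 (0.55) and CENPF (0.53) led the higher ones. PMF1 (-0.46, adjusted p = 0.0081) and SKA2 (-0.36, adjusted p = 0.00116) were the lower ones. By layer the difference was called in 10 of 19 outer genes, 8 of them higher, and in 2 of 13 inner ones, CENPI (0.44) and CENPC (0.39). For BUB1B the difference of 0.16 (95% interval 0.02 to 0.29) was not called (adjusted p = 0.0853).

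By their median, the control groups differed more in these genes than either treatment from its control. Between shGFP and cel-miR-67, 27 of the 41 genes were higher in shGFP and 7 lower, where 61.4% of all genes were called (28.4% higher and 33.0% lower). The median was 0.48, against 0.02 over all genes. The arrays of these groups did not overlap in 29 genes that were higher and 8 that were lower, against 31.3% and 34.8% of all genes. Infection, sorting and transfection all differ between these groups and cannot be told apart. ZWILCH was 2.59-fold higher in shGFP (log2 1.37, SE 0.06, adjusted p = 3.41e-10), ZWINT 2.15-fold and SGO1 2.04-fold, and all 5 checkpoint genes were higher, by 0.59 for BUB3 to 0.99 for MAD2L1. CENPW (-0.47), MIS12 (-0.44), SKA2 (-0.39), SKA1 (-0.33), CENPM (-0.21), CENPL (-0.18) and NSL1 (-0.16) were lower. Other probe sets above the filter level went the other way for CENPL (0.02) and NSL1 (0.25, 0.17 and 0.12), as did 1 of SPC24 (-0.04), which was higher by 0.95. The cel-miR-67 mean was the lowest of the 4 groups in 30 of 41 genes, and both transfected groups lay below both infected ones in 26. The order from shBCL9 over shGFP and miR-30 down to cel-miR-67 was the most frequent, in 17 genes, although shBCL9 and shGFP were not called apart in most of them. The rise with miR-30 shares the cel-miR-67 arrays with this comparison. With miR-30 the means of CENPF (10.00) and KNL1 (9.29) lay above those with shGFP (9.83 and 9.27). That of SPDL1 (9.77) stayed under its shGFP mean of 10.41. All miR-30 arrays of CENPE (mean 10.32) lay above every other array.

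**Figure D3:**
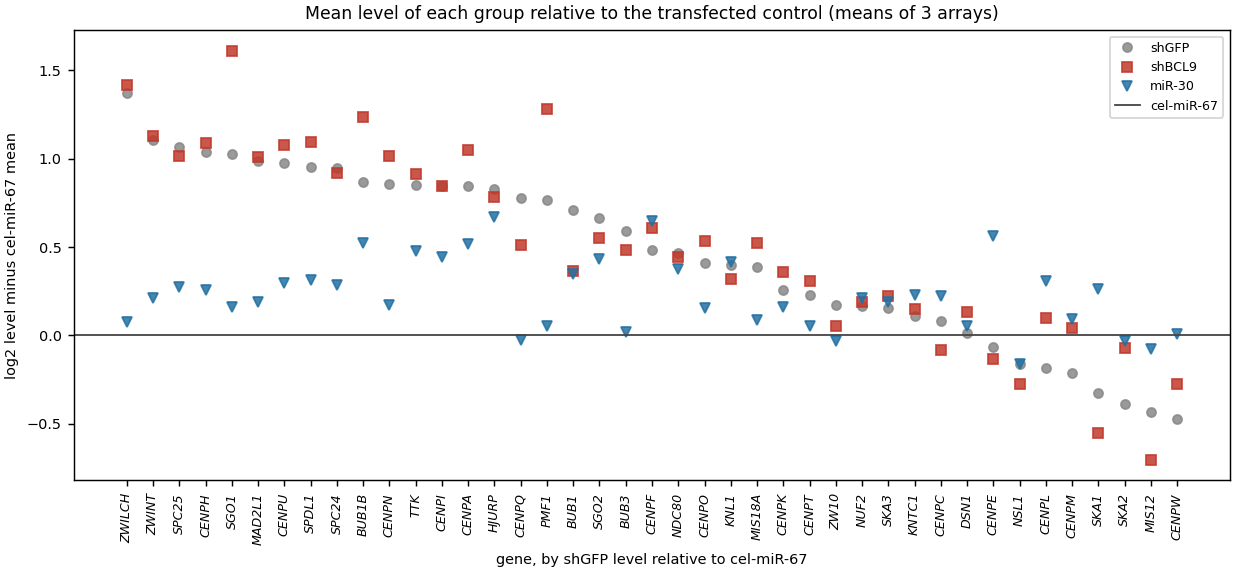
Mean log2 level of each group of 3 arrays minus the cel-miR-67 mean (vertical axis) for the 41 genes, ordered from left to right by the shGFP value. At the left shGFP and shBCL9 both lie above miR-30, with ZWILCH at 1.37 in shGFP. They lie close together for ZWILCH and ZWINT, while SGO1 is higher in shBCL9 by 0.58. At the right CENPW, MIS12, SKA2 and SKA1 lie below 0 in shGFP.

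Other genes of chromosome segregation were read as lists beside these. Of 57 measured, 21 rose with miR-30 and none fell, against the 2.34% and 2.63% given above, with a median of 0.12. With shBCL9 15 rose and 11 fell, together 45.6%, near the 41.5% of all genes. Of the chromosomal passenger complex, which corrects faulty attachments, 3 of 4 rose with miR-30: the kinase gene AURKB (0.44), CDCA8 (0.54) and BIRC5 (0.34). With shBCL9 AURKB rose by 0.18 and CDCA8 fell by 0.25. Of the mitotic kinases and cyclins 6 of 8 rose with miR-30, among them CCNB1 (0.49), AURKA (0.46), NEK2 (0.48) and CCNB2 (0.30), and with shBCL9 PLK1 rose (0.25) and NEK2 fell (-0.17). Of the factors that act on kinetochore microtubules 5 of 10 rose with miR-30, including the depolymerase gene KIF2C (0.43), KIF18A (0.47), SPAG5 (0.32) and KNSTRN (0.32). With shBCL9 KIF2C rose (0.16), and CLIP1 (-0.37), KIF18A (-0.28) and CLASP2 (-0.15) fell.

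Of the checkpoint partners and subunits of the anaphase-promoting complex 3 of 20 rose with miR-30: the activator gene CDC20 (0.63, adjusted p = 0.000165), TRIP13 (0.41), whose product disassembles checkpoint complexes, and UBE2C (0.32), a ubiquitin-conjugating enzyme. The median of that list was -0.05. With shBCL9 5 rose and 5 fell, including UBE2S (0.31), ANAPC15 (0.34), CDC20 (0.24) and ANAPC13 (-0.56). Of cohesin and separase genes 3 of 11 rose with miR-30, the sororin gene CDCA5 (0.42), the securin gene PTTG1 (0.40) and the separase gene ESPL1 (0.28), and 5 of 11 with shBCL9, including STAG2 (0.20), WAPL (0.22), ESPL1 (0.16) and SMC3 (0.22). Among 4 other centromere genes CENPV rose with miR-30 (0.26) and fell with shBCL9 (-0.35), while CENPX (0.31) and CENPB (0.22) rose with shBCL9.

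**Figure D4:**
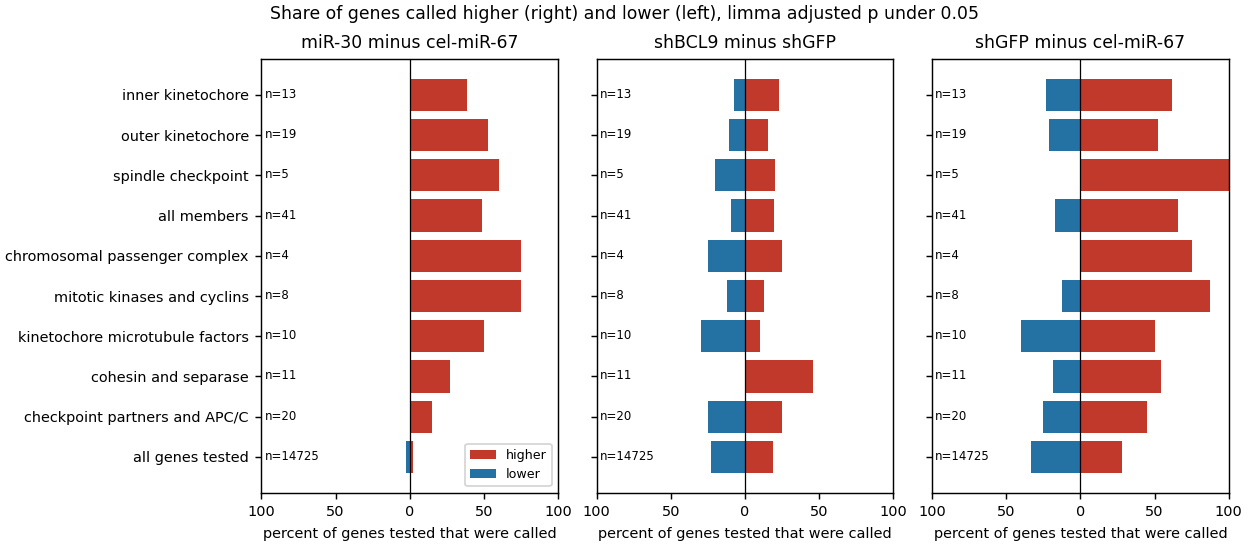
Percent of the genes of each list called higher (red, to the right) and lower (blue, to the left) at an adjusted p of 0.05 in limma, in 3 comparisons, with the number of genes tested (n) at the left of each row. In the miR-30 panel 0 lower calls appear in the kinetochore and partner lists, against 2.34% higher and 2.63% lower of all genes in the bottom row. The difference between lists was not tested.

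The promoter letters were also set against these calls. TTTGAA stood in 10 of 16 windows of genes that rose with miR-30 and in 6 of 17 windows of measured genes not called there. CCAAT stood in 11 of 16 and 11 of 17. Among the genes called with shBCL9, TTTGAA stood in 4 of 10 windows, CCAAT in 8 of 10 and both in 2 of 10. The 4 of these that rose with shBCL9 and were not called with miR-30 held CCAAT in 4 of 4 and TTTGAA in 0 of 4, beside 36.3% and 10.2% of tested genes. These counts are small and were not tested.

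Signs of RNA quality moved with some groups. The 18S ribosomal RNA control read 12.46 to 12.57 with cel-miR-67 and 12.60 to 12.67 with miR-30, and 12.30 to 12.43 with shGFP and 13.20 to 13.24 with shBCL9, without overlap in either arm. The gap between the 3' and the 5' probe sets of ACTB grows as RNA breaks or labelling shortens. It was 2.16 ± 0.09 with cel-miR-67, 2.07 ± 0.01 with miR-30, 1.30 ± 0.11 with shGFP and 1.67 ± 0.08 with shBCL9 (SD, n = 3 each). The same gap of GAPDH was 0.18 ± 0.04 with cel-miR-67 and 0.20 ± 0.04 with miR-30. It was 0.14 ± 0.02 with shGFP and 0.13 ± 0.02 with shBCL9, with overlapping arrays in both arms. The ACTB gap ran from 1.17 to 1.36 with shGFP and from 1.59 to 1.75 with shBCL9, without overlap. In that arm its part and that of the hairpin cannot be told apart. The gap overlapped between the transfected groups (2.06 to 2.21 with cel-miR-67, 2.06 to 2.08 with miR-30). With the ACTB difference as a covariate all 20 genes that rose with miR-30 were still called, and 4 of the 12 called with shBCL9 (BUB1, BUB1B, PMF1 and SKA1). In that fit 335 of all genes were higher and 219 lower with miR-30, and 1075 higher and 1892 lower with shBCL9, and the median of the 41 genes was 0.25 and -0.05. With the 18S signal as a covariate, an alternative chosen after seeing the data, BUB1B, CENPE, CENPF and HJURP were still called with miR-30 and 0 of the 12 with shBCL9. In that fit 41 of all 14725 genes were higher and 15 lower with miR-30, and 3 higher and 8 lower with shBCL9. The median change of the 41 genes was then 0.17 with miR-30 and 0.04 with shBCL9, against 0.21 and 0.05 without the covariate. The 18S signal separates the groups of each arm, so its part and that of the treatment cannot be told apart. Markers of cell identity were also read. Of the 9 plasma cell markers, 3 rose and 2 fell with shBCL9, where 41.5% of all genes were called. Among them were SDC1 (0.88), CD38 (0.71), SLAMF7 (0.60) and TNFRSF17 (-0.18). With miR-30 CD38 fell (-0.29), where 4.98% of all genes were called. All 9 plasma cell markers were called between the controls, where 61.4% of all genes were. Their mean level was 12.06 to 12.08 with shGFP, 12.28 to 12.29 with shBCL9, 11.70 to 11.73 with cel-miR-67 and 11.67 to 11.69 with miR-30. Of 3 tested B cell markers, BACH2 rose with miR-30 (0.32) and fell with shBCL9 (-0.55), while PAX5 (0.01 and 0.15) and CIITA (0.00 and 0.01) were not called in either. The mean level of the measured B cell markers lay between 5.50 and 5.63 with cel-miR-67, 5.60 and 5.78 with miR-30, 5.70 and 5.85 with shGFP, and 5.64 and 5.74 with shBCL9. The part of these markers in the results was not tested.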

How the data were processed

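Trizol RNA of H929 cells was biotin-labelled for a 3' in vitro transcription array, per the labels' protocols. The authors deposited log2 intensities of 54675 probe sets on 12 arrays, made with RMA and affy per the submitters' processing notes (versions are not given in the sources used here). They were used as deposited. Probe sets were named from GEO's platform annotation: 41097 had 1 gene symbol, 1801 several and 11777 none, and those with 1 were used, the probe set of highest mean standing for each of 19775 genes. Genes above the 40th percentile of their array (4.86 to 4.95) in at least 3 arrays were kept, 14725 in all. Group means over the 12 arrays were modelled with limma 3.58.1 (R 4.3.3; lmFit, then eBayes), with Benjamini-Hochberg adjustment over all genes tested and calls under 0.05. The fit was tested on simulated data with independent arrays and rises added to some genes with miR-30 only. Those data held no difference between arms or in RNA quality, so such differences were not covered. Array numbers limit the precision.

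The genes, lists and tests were chosen with earlier results of these data known. Each array's value is given for genes called with a log2 change of at least 0.3 with either treatment, or called in the difference of effects, up to 12 per comparison. Of each partner list up to 4 called genes are named by adjusted p. Same-numbered arrays deviated together at r = 0.050, 0.100 and 0.070 in the infected arm and 0.118, 0.091 and 0.226 in the transfected arm. Different-numbered ones ran from -0.149 to 0.065 and from -0.242 to 0.126. These values do not settle if the numbers mark pairs. The main fit did not take them as pairs, and a fit with them as a block is given below. Alternatives changed the filter, probe set choice, scaling, arrays, weights, variance model, threshold and covariates, and left out each array. Promoters and microRNAs came from RefSeq tables (GRCh38.p14). Scripts ran under Python 3.11.15 with pandas 2.3.3 and matplotlib 3.10.9.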

Additional observations from a re-analysis of the deposited data

Results flagged for a closer look

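In 16 of the 41 genes the effect of miR-30 differed from that of shBCL9 by limma's test of the difference itself (adjusted p under 0.05, on the log2 scale, miR-30 minus shBCL9). In the loading and inner layer these were HJURP (0.72), CENPI (0.44) and CENPC (0.39). In the KNL1, MIS12 and NDC80 network they were KNL1 (0.49), NDC80 (0.40), SPC25 (0.32), SPC24 (0.31), ZWINT (0.19) and PMF1 (-0.46). In the corona and SKA complex they were CENPE (0.64), CENPF (0.53), SKA1 (0.48) and SKA2 (-0.36). In the checkpoint and shugoshins they were BUB1 (0.69), TTK (0.42) and SGO2 (0.55). SPC25 and ZWINT lost the call without some array, at adjusted p-values of 0.0501 to 0.0564 for SPC25 (without shGFP replicates 2 or 3, shBCL9 replicate 1, cel-miR-67 replicate 1 or miR-30 replicate 3) and of 0.054 to 0.0841 for ZWINT (without 9 of the 12 arrays, all but shGFP replicate 1, shBCL9 replicate 2 and cel-miR-67 replicate 3). BUB1, SKA1 and CENPC were called in opposite directions in the arms.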

How the results depend on the processing

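No alternative turned a miR-30 rise into a called fall. Reversed signs, none called, were SPDL1 with shBCL9 as the mean of probe sets (-0.086, adjusted p = 0.25) and, with the 18S covariate, chosen after seeing the data, CENPL (-0.56) and SGO1 (-0.27) with shBCL9. Counts that moved by over 1.5 times follow, as higher or lower calls, with causes not tested unless the setting is smaller by construction. Plain probe sets, which measure 32 of the genes, gave 12 higher with miR-30 (2 inner, 5 outer), 2 lower with shBCL9 (0 outer) and 3 lower in shGFP against cel-miR-67. A threshold of 0.01 gave 13 higher with miR-30 (3 inner, 5 outer) and 0 inner lower with shBCL9. With only the compared arrays 6 outer genes were higher with miR-30 and 0 inner lower with shBCL9. Inner genes higher with shBCL9 numbered 5 with the mean of probe sets, quantile normalization (0 lower), array weights (2 lower) and the trend and robust model. Array weights gave 7 lower with shBCL9 (4 outer), trend and robust gave 1 lower with miR-30, an outer gene, and both, like the 60th percentile filter, gave 4 lower in the difference. The ACTB covariate gave 3 higher and 2 lower with shBCL9 (inner 1 and 0, outer 1 and 1), 8 and 1 in the difference, and 12 and 0 in shGFP against cel-miR-67. The 18S covariate gave 4 higher with miR-30 (0 inner, 2 outer), 0 and 0 with shBCL9 (inner and outer too) and 0 and 0 in the difference. Leaving out 1 array gave 13 to 20 higher with miR-30 (inner 3 to 5, outer 5 to 10), 7 to 9 higher and 3 to 5 lower with shBCL9 (inner 3 to 4 and 0 to 2, outer 2 to 3 and 2 to 2), 12 to 15 and 2 to 3 in the difference, and 26 to 29 and 5 to 7 in shGFP against cel-miR-67. With the replicate number as a block, 17 genes were higher with miR-30 (CENPC, SKA1 and SPC24 were lost), 9 higher and 4 lower with shBCL9, and 14 higher and 2 lower in the difference. Not every array correlated best with its own number. After quantile normalization 58.3% of all calls with miR-30 were higher, against 47.1%, while 20 of the 41 genes were higher and 0 lower. The groups of 3 and the single control probe sets for RNA quality limit all values.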
